A study of Arabidopsis thaliana with 12 samples.

Results

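The genes described here are 6 WRKY transcription factors, WRKY6, WRKY20, WRKY22, WRKY42, WRKY47 and WRKY53, together with STZ, a zinc finger transcription factor. They were chosen by name: every gene with a probe set of its own in the platform's probe-to-gene table whose symbol begins with WRKY or ERF and a digit, plus STZ. The rule found 7 genes of 13356 with such a probe set, and 0 of them carried an ERF symbol, so numbered ERF genes were not analysed here. Each of the 7 had 1 probe set. The study hybridised RNA from fluorescence-sorted root tip cells of Arabidopsis seedlings, 5 days old, to 12 ATH1 arrays, with 3 arrays for each of 4 lines. In the BLJ, JKD and SCR groups, J0571 plants carried a UAS construct that drove BLJ, JKD or SCR, and the control group was J0571 alone. All 4 groups are ecotype C24 in a wild-type background and carry J0571, an enhancer trap in which GAL4 and green fluorescent protein mark the ground tissue, that is the cortex and endodermis. Whether a UAS group came from 1 transgenic line or several is not stated in the labels. The question is how far these stress-responsive regulators differed between the lines, and between the arrays of 1 line.

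WRKY proteins are a plant family of transcription factors that bind the W box, a short DNA element found in the promoters of many defence and senescence genes, WRKY genes included. STZ, also known as ZAT10, is a zinc finger protein of the C2H2 class that represses transcription and is induced by salt, cold, drought, wounding and high light. Transcripts of several WRKY genes and of STZ accumulate within minutes of touch, wounding or elicitors. Plant cells must be released from their walls before they can be sorted, a step to which such genes respond. Every array came from sorted cells, so a part of the level that comes from cell isolation and a part present in the root cannot be told apart. In RNA from pooled cells, fewer cells of a type and less RNA per cell cannot be told apart either.

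The arrays differed in ways that touch these genes. The deposited intensities were on a linear scale of unknown units with 66.1% of values under 1, and the width of their distribution differed between arrays. On the log2 scale the SD over probe sets came to 0.878 to 0.975 for BLJ, 0.818 to 1.01 for JKD, 0.908, 0.676 and 0.911 for SCR 1, SCR 2 and SCR 3, and 0.685 to 0.711 for the control, so that SCR 2 resembled the controls. Heat shock genes, 5 of a list of 21 tested, were high on BLJ 1, BLJ 3 and control 3, with a mean log2 level of 1.31, 1.56 and 1.40 against 0.58 to 0.99 on the other 9 arrays. Markers of the sorted tissue were thinly covered: 2 of 2 cortex and 2 of 13 endodermis genes had a named probe set of their own. The summed intensity of the cortex markers was 2.74 to 3.06 for BLJ, 2.46 to 2.55 for JKD, 2.28 to 2.52 for SCR and 1.72 to 2.4 in the controls. For the endodermis markers, EN7 and JKD, the sum was 1.65 to 1.75 for BLJ and 1.75 to 1.92 for JKD. It was 1.85 to 2.07 for SCR and 1.76 to 1.88 in the controls. The BLJ arrays lay above the controls in the cortex sum and under them in the endodermis sum. Each sum has only 2 genes, and the cortex marker CO2 was not higher for BLJ (log2 fold change −0.02 against control). Of the endodermis markers, EN7 had −0.05 with overlapping groups and JKD −0.07. JKD is also the gene driven in the JKD line, where its probe set had −0.02 against control. Limma called the cortex marker CORTEX higher (log2 fold change 0.47, adjusted p = 0.0163) and the stele marker OPS lower (−0.12, adjusted p = 0.0373) for BLJ against control. The stele genes PHV and LHW had −0.01 and 0.01 in that comparison. The endodermis marker JKD was called lower in limma for BLJ than for SCR (−0.14, adjusted p = 0.0138). The sum of the 2 root hair genes measured, of 5 listed for epidermis and root hair, was 1.75 to 1.84 for BLJ, 1.55 to 1.57 for JKD, 1.42 to 1.53 for SCR and 1.61 to 2.18 for the control. Further measured were 3 of 16 stele genes, 2 of 5 stem cell niche genes and 0 of 4 root cap genes. The part of these differences in the values below was not tested.

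With quantile normalization, none of the 7 genes was called changed between any of the 4 groups. Intensities below are after quantile normalization between arrays unless the deposited scale is named, and log2 fold changes are of intensity plus 0.702. The test was limma over all 12 arrays with Benjamini-Hochberg adjustment over 15922 probe sets, and a gene was called at an adjusted p under 0.05. Of the 7 genes, 6 passed the filter on dim probe sets. WRKY42 did not: its mean over the 12 arrays was 0.730, just under the 0.735 needed. For BLJ against control limma called 0 of the 6, where 4.25% of all probe sets tested were called. It called 0 of 6 for JKD (2.74% of all) and 0 of 6 for SCR (0.396% of all). Between lines the count was also 0 of 6, against 1.71% of all probe sets for BLJ minus JKD, 1.55% for BLJ minus SCR and 0.49% for JKD minus SCR. In the F-test for any difference between the groups, 0 of 6 passed, against 4.96% of all probe sets.

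At an unadjusted p under 0.05, limma had 1 gene for BLJ against control, STZ, and 2 between BLJ and SCR, STZ and WRKY47. The other 4 comparisons had 0. Over all probe sets tested that level was reached by 19.1% for BLJ, 19.1% for JKD and 16.6% for SCR against control, by 12.1% for BLJ minus JKD, 16.4% for BLJ minus SCR and 10.5% for JKD minus SCR. The median log2 fold change of the 6 genes was −0.04 for BLJ, −0.01 for JKD and 0.01 for SCR, beside 0.00, 0.01 and 0.00 over all probe sets tested. With so few members these shares and medians describe the 6 genes and no more.

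STZ (AT1G27730) varied most among the 7, by 2.3-fold from its lowest array to its highest. It had 5.79, 4.0 and 4.25 in BLJ cells, 5.97, 6.02 and 4.82 in JKD cells, 6.31, 9.18 and 5.87 in SCR cells, and 5.58, 7.99 and 7.39 in control cells, in replicate order. SCR 2, control 2 and control 3 were the highest 3 arrays, and BLJ 2 and BLJ 3 the lowest 2. BLJ and control values overlapped through BLJ 1 and control 1, while every BLJ array lay under every SCR array, as held for 11.2% of all probe sets.

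The group means of STZ were 4.68 ± 0.967 for BLJ, 5.60 ± 0.680 for JKD, 7.12 ± 1.80 for SCR and 6.99 ± 1.25 for the control (SD, n = 3 each). From high to low they ran SCR, control, JKD and BLJ, and no neighbours in that order differed by more than their SDs together. In the BLJ line the log2 fold change against the controls was −0.52 ± 0.18 (SE), with a 95% interval from −0.90 to −0.13 and an adjusted p of 0.125 in limma. It was −0.28 for JKD (interval −0.66 to 0.10, adjusted p = 0.418) and 0.01 for SCR (−0.37 to 0.40, adjusted p = 0.977). These differences did not pass the test, and the intervals leave room in the BLJ line for values from near 0 to almost −1. Against the SCR line, the BLJ line had −0.53 ± 0.18 (adjusted p = 0.159) and the JKD line −0.29 (adjusted p = 0.607). BLJ minus JKD was −0.24 (adjusted p = 0.686), and the F-test over the 4 groups gave an adjusted p of 0.170.

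The sign of the STZ difference depended on the scaling of the arrays. As deposited, STZ had 7.17, 4.25 and 4.50 in BLJ cells, 7.94, 5.75 and 5.61 in JKD cells, 6.98, 6.60 and 6.47 in SCR cells, and 4.25, 5.79 and 5.42 in control cells. On that scale the controls no longer stood among the highest arrays, and every SCR array lay above every control array, as held for 12.1% of all probe sets. The deposited log2 fold changes were 0.01 for BLJ, 0.28 for JKD and 0.34 for SCR, and none was called (adjusted p = 0.960, 0.293 and 0.345 in limma).

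**Figure D1:**
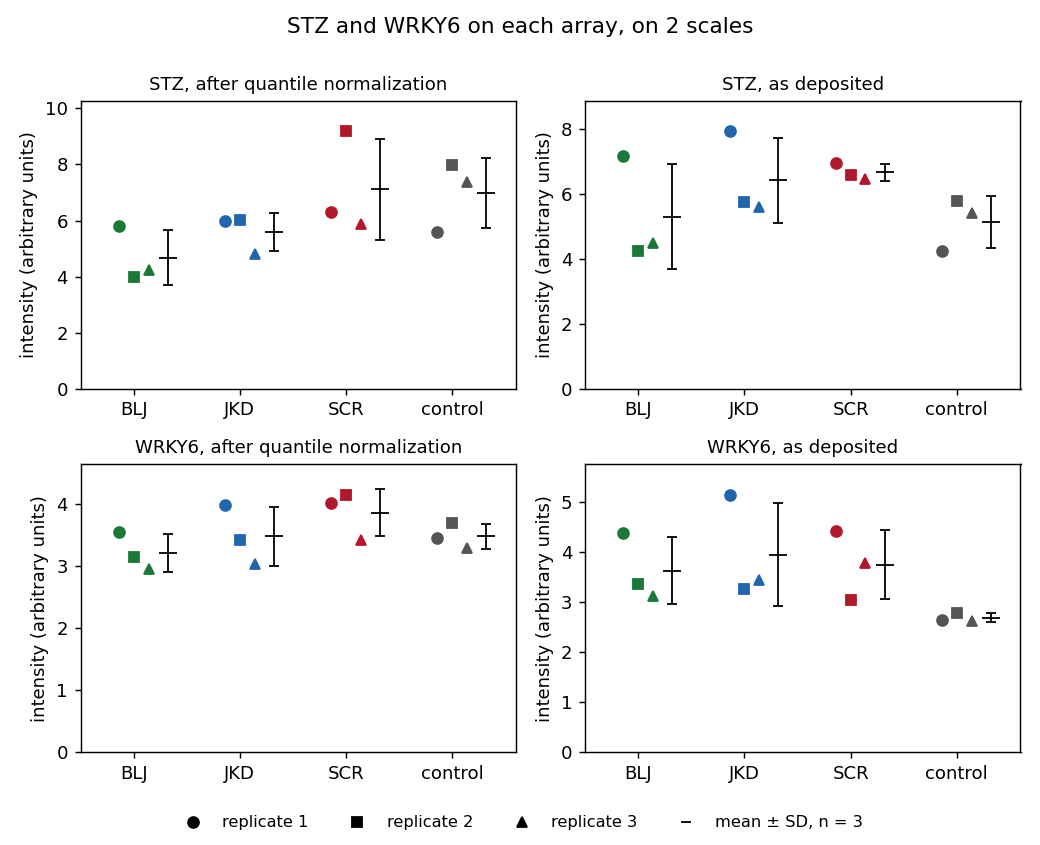
Intensity of STZ (top) and WRKY6 (bottom) on each array in arbitrary units, after quantile normalization (left) and as deposited (right), for the BLJ, JKD, SCR and control groups. Points are arrays, shaped by replicate number, and bars are the mean ± SD of 3 arrays. On the deposited scale the control arrays of WRKY6 lie between 2.62 and 2.79, under every line array. After normalization the groups overlap.

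WRKY6 (AT1G62300), known for its part in senescence, defence and the phosphate response, was the other bright member. It had 3.55, 3.15 and 2.95 in BLJ cells, 3.99, 3.42 and 3.04 in JKD cells, 4.02, 4.15 and 3.43 in SCR cells, and 3.46, 3.70 and 3.29 in control cells. The highest 2 arrays were SCR 2 and SCR 1, the lowest was BLJ 3, and all pairs of groups overlapped. The means were 3.87 ± 0.384 in the SCR line, 3.48 ± 0.479 in the JKD line, 3.21 ± 0.307 in the BLJ line and 3.48 ± 0.204 in the controls. No neighbours in that range differed beyond their SDs.

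Against the controls, WRKY6 differed by a log2 fold change of −0.10 in the BLJ line (95% interval −0.32 to 0.12), −0.01 for JKD (−0.23 to 0.22) and 0.12 for SCR (−0.10 to 0.35). Limma's adjusted p was 0.683, 0.984 and 0.576. BLJ minus SCR was −0.22 ± 0.10 (adjusted p = 0.305), the widest difference of WRKY6 between any 2 groups.

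As deposited, WRKY6 was above every control array on all 9 line arrays. It had 4.39, 3.36 and 3.13 in BLJ cells, 5.14, 3.27 and 3.44 in JKD cells, 4.43, 3.04 and 3.78 in SCR cells, and 2.65, 2.79 and 2.62 in control cells. Probe sets that were higher without overlap made up 29% of all for BLJ, 27.2% for JKD and 12.1% for SCR on that scale. The deposited log2 fold changes of 0.34, 0.43 and 0.38 were not called (adjusted p = 0.142, 0.0666 and 0.250). The brightest 10% of probe sets as a whole, 2275 in number, had medians of 0.44, 0.45 and 0.26 on the deposited scale, with 97.4%, 98.1% and 92% of them above 0 for BLJ, JKD and SCR. The medians of the same probe sets after normalization were 0.00, 0.01 and 0.01. By their means over the 12 arrays WRKY6 and STZ are bright too. Beside those deposited medians, STZ had 0.01 for BLJ, 0.28 for JKD and 0.34 for SCR. The part of the general shift in the values of WRKY6 and STZ was not tested.

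The other WRKY genes were dim, with 12-array means from 0.730 to 0.931, and they varied little. WRKY53 (AT4G23810), a regulator of leaf senescence that is quickly induced by stress, ranged widest among them, by 1.30-fold. It had 0.782, 0.799 and 0.764 in BLJ cells, 0.821, 0.903 and 0.742 in JKD cells, 0.824, 0.897 and 0.794 in SCR cells, and 0.827, 0.967 and 0.828 in control cells. The second array was the highest of each group, and control 2 the highest of all.

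Every BLJ array of WRKY53 lay under every control array, as did 10.4% of all probe sets in that comparison. Its mean was 0.782 ± 0.0178 for BLJ and 0.874 ± 0.0803 for the control, a log2 fold change of −0.09 ± 0.04 (95% interval −0.17 to 0.00) with an adjusted p of 0.275 in limma. The JKD line, at 0.822 ± 0.0807, had −0.05 (adjusted p = 0.549), and the SCR line, at 0.839 ± 0.0527, −0.03 (adjusted p = 0.729). On the deposited scale the BLJ difference of WRKY53 passed the test, at −0.12 with an adjusted p of 0.0398. There 8.83% of all probe sets were called lower.

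WRKY47 (AT4G01720) had 0.998, 0.939 and 0.971 in BLJ cells, 0.941, 0.922 and 0.915 in JKD cells, 0.919, 0.837 and 0.927 in SCR cells, and 0.917, 0.973 and 0.912 in control cells. SCR 2 was the lowest array, and every BLJ array lay above every SCR array, as did 12.6% of all probe sets. The log2 difference BLJ minus SCR was 0.07 ± 0.03 (adjusted p = 0.273 in limma). Against the controls it was 0.03 for BLJ, −0.01 for JKD and −0.04 for SCR, with adjusted p-values from 0.561 to 0.918. The means were 0.969 ± 0.0295 for BLJ, 0.926 ± 0.0134 for JKD, 0.894 ± 0.0498 for SCR and 0.934 ± 0.0338 for the control, which lay between BLJ and JKD.

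WRKY22 (AT4G01250), which acts in MAP kinase signalling after bacterial flagellin is sensed, had group means close to each other. Its means were 0.870 ± 0.0880 for BLJ, 0.893 ± 0.0545 for JKD, 0.885 ± 0.0594 for SCR and 0.872 ± 0.0694 in the controls. The spread lay within the groups. In each, 1 array stood at 0.952 to 0.964 (BLJ 2, JKD 1, SCR 3 and control 2) and the other 2 at 0.789 to 0.878. The log2 fold changes were 0.00, 0.02 and 0.01, with 95% intervals inside −0.10 to 0.11.

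WRKY20 (AT4G26640) was the least variable of the 7, with 1.11-fold between its lowest and highest arrays. Its means were 0.908 ± 0.0222 for BLJ, 0.930 ± 0.0296 for JKD, 0.890 ± 0.0217 for SCR and 0.884 ± 0.0354 in the controls. The log2 fold changes were 0.02, 0.04 and 0.01 (adjusted p = 0.713, 0.405 and 0.933 in limma).

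WRKY42 (AT4G04450), which like WRKY6 takes part in phosphate homeostasis, had 0.745, 0.774 and 0.729 in BLJ cells, 0.732, 0.676 and 0.675 in JKD cells, 0.724, 0.743 and 0.744 in SCR cells, and 0.730, 0.728 and 0.754 in control cells. JKD 2 and JKD 3 were the lowest 2 arrays. WRKY42 was not tested because of its low mean. For all 7 genes, no neighbours among the 4 group means differed by more than their SDs together.

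**Figure D2:**
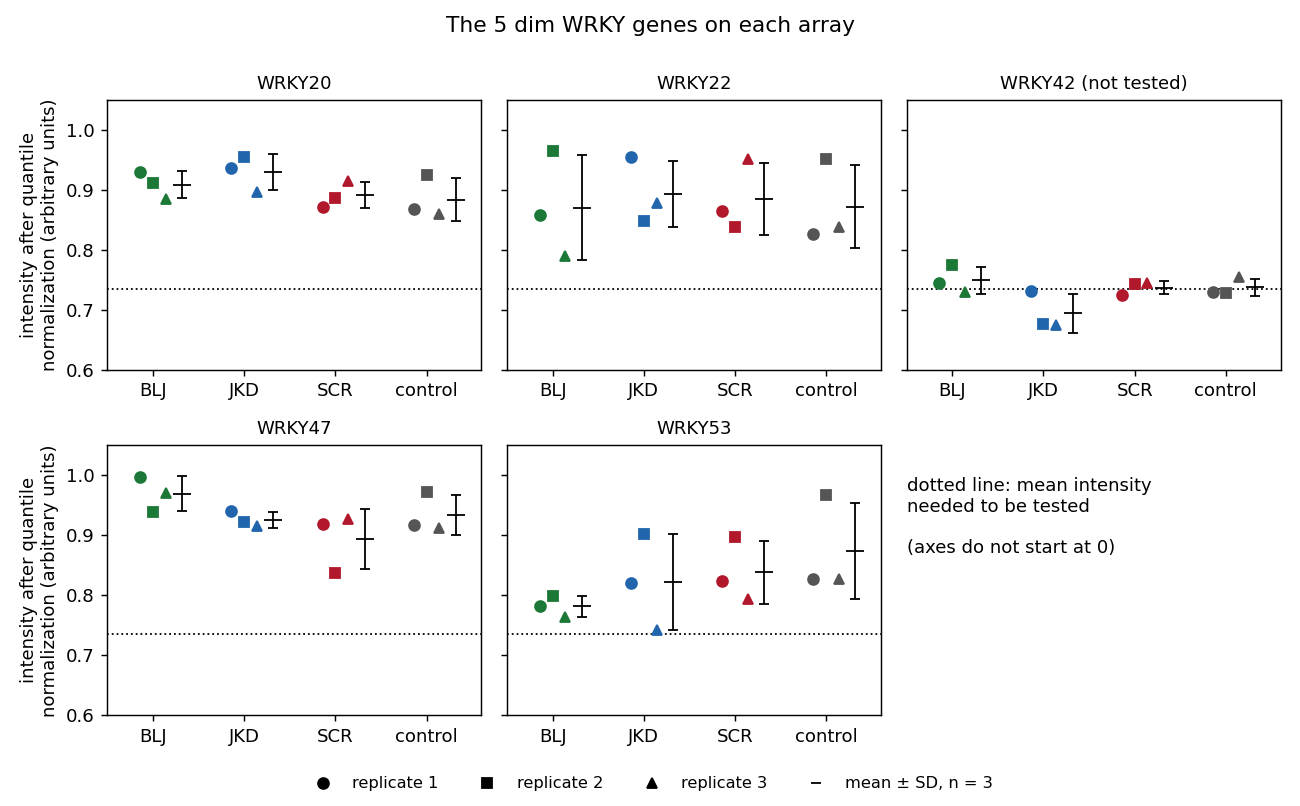
Quantile-normalized intensity, in arbitrary units, of WRKY20, WRKY22, WRKY42, WRKY47 and WRKY53 on each array, with the mean ± SD of 3 arrays per group. The dotted line is the mean of 0.735 needed to be tested, and the axes do not start at 0. WRKY22 has 1 array near 0.95 in each group, and the 3 BLJ arrays of WRKY53 lie under the 3 control arrays.

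**Figure D3:**
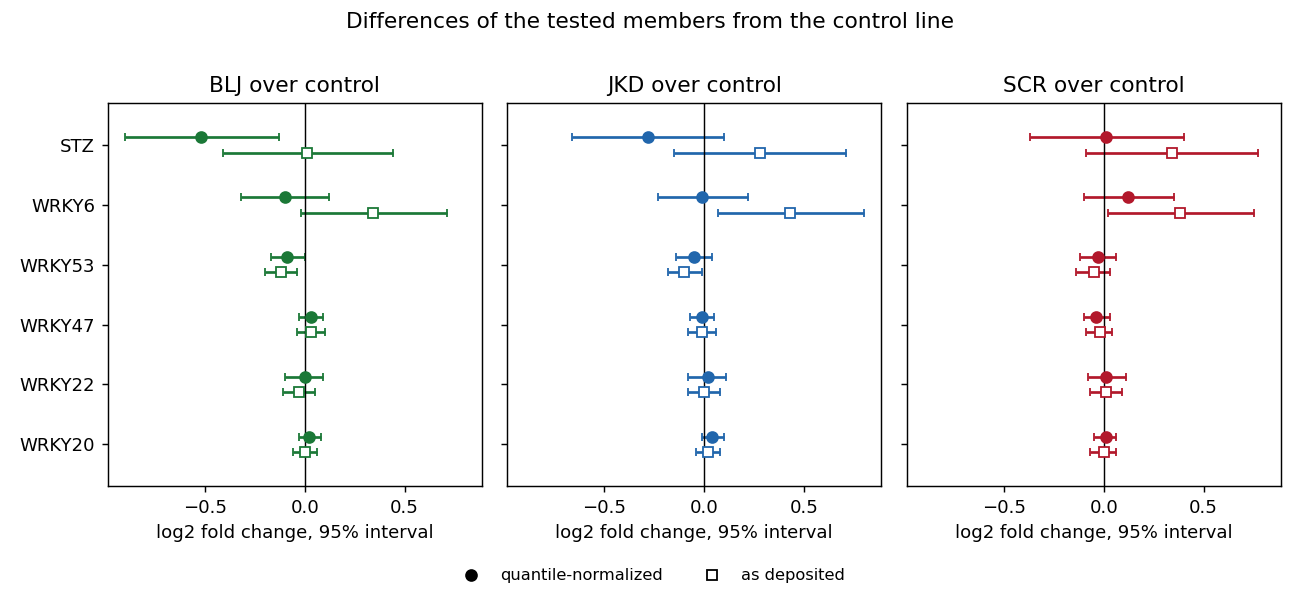
Log2 fold change of the 6 tested genes in the BLJ, JKD and SCR lines over the control, with 95% intervals from limma, after quantile normalization (filled) and as deposited (open). STZ and WRKY6 lie higher on the deposited scale in all 3 lines, with STZ in the BLJ line at −0.52 and 0.01, while the intervals of WRKY20, WRKY22 and WRKY47 cover 0 on both scales.

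Which genes went up and down together across arrays was described over the 12 arrays, which share 4 groups of 3, 1 normalization and the differences in spread given above. Of 21 pairs of members, STZ with WRKY6 and STZ with WRKY53 had the highest Pearson's r, 0.73 each (Spearman's rho 0.70 and 0.78). Leaving out the 2 arrays farthest from the median of WRKY6 gave 0.64, and of WRKY53 0.67. After each group's mean was taken off, both were 0.65, a value pooled over the 4 groups. For STZ with WRKY53 it did not describe every group. In BLJ cells WRKY53 was highest on BLJ 2, where STZ was lowest. In JKD, SCR and control cells both genes were highest on array 2 of the group. On the deposited scale r was 0.73 for STZ with WRKY6 and −0.07 for STZ with WRKY53, so the second relation held only after normalization. STZ and WRKY6 are both bright, and bright probe sets as a whole lay higher in the lines on that scale, as given above. The part of that general shift in any r on the deposited scale was not tested. WRKY6 and WRKY53 had 0.55 after normalization and −0.54 as deposited. WRKY22 and WRKY20 followed STZ at −0.03 and −0.07. Against the mean of the heat shock genes r was −0.37 for STZ, −0.61 for WRKY6 and −0.52 for WRKY53. With the group means taken off it was 0 for STZ, −0.44 for WRKY6 and −0.51 for WRKY53.

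Other genes of the same pathways were measured only in part. Of the lists drawn up for wounding and jasmonate (26 genes), ethylene (20), early defence and MAP kinases (33), STZ relatives (8) and AP2/ERF factors with other names (28), 0, 2, 2, 1 and 2 were tested. Each of these lists had 0 members called in any line against the control. A further list of 7 calmodulin-like calcium sensors, another of 3 U-box ubiquitin ligases that dampen immune signalling, one of 5 jasmonate and ethylene genes and one of 6 WRKY and AP2/ERF genes under other symbols, put together from the gene names in the table, had 7, 3, 3 and 3 tested and also 0 called in any line against the control. Between lines, CML42, a calcium sensor of the first of these, was called higher for BLJ than for SCR (0.32 ± 0.07, adjusted p = 0.044 in limma). The medians of these 4 added lists lay between −0.05 and 0.07, beside 0.00 or 0.01 over all probe sets. On the deposited scale the count of list genes called against the control was not 0. Of 17 tested there, limma called EIN3, CML38, CML42 and PUB23 higher and CML41 lower for BLJ, EIN3 and PUB23 higher and CML30 lower for JKD, and 0 for SCR. Over all probe sets on that scale, 9.63% were called higher and 8.83% lower for BLJ, and 13.1% and 12.1% for JKD.

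Among these genes ORA47 (AT1G74930), an AP2/ERF factor that activates jasmonate synthesis genes, came closest to the array pattern of STZ. It had 3.14, 2.50 and 2.4 in BLJ cells, 3.17, 2.88 and 3.10 in JKD cells, 3.61, 5.49 and 3.67 in SCR cells, and 3.54, 4.32 and 3.73 in control cells. As with STZ, SCR 2 was the highest array, control 2 came next, and BLJ 2 and BLJ 3 were the lowest. Pearson's r with STZ was 0.92 over 12 arrays (rho 0.83), 0.84 without SCR 2 and BLJ 2, 0.85 after the group means were taken off and 0.89 as deposited. ORA47 was picked for mention among 17 other genes set beside STZ after these values were seen.

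After normalization every BLJ array and every JKD array of ORA47 lay under every control array and every SCR array. For BLJ the shares over all probe sets were 10.4% and 11.2%, and those for JKD are not given here. ORA47 was not called. The log2 fold change was −0.43 ± 0.13 in the BLJ line (95% interval −0.72 to −0.14, adjusted p = 0.0909 in limma), −0.28 for JKD (adjusted p = 0.279) and 0.10 for SCR (adjusted p = 0.742). As deposited ORA47 had 3.86, 2.67 and 2.56 in BLJ cells and 2.73, 3.17 and 2.94 in control cells, which overlap, and the log2 fold change was 0.02 for BLJ, 0.17 for JKD and 0.36 for SCR (adjusted p = 0.938, 0.426 and 0.250). ZAT5 (AT2G28200), a zinc finger relative of STZ, had −0.19 ± 0.05 in the BLJ line (adjusted p = 0.0640), −0.10 for JKD and −0.02 for SCR, against −0.06, 0.06 and 0.09 as deposited. CML37, a calcium sensor of wound and herbivore responses, had −0.15, −0.16 and −0.05, against 0.05, 0.02 and 0.06 as deposited, and its r with STZ was 0.77 (rho 0.69), against 0.50 as deposited. CML38, a close relative of CML37, had 0.23, 0.07 and −0.03, against 0.69, 0.52 and 0.23 as deposited, where the BLJ value was called (adjusted p = 0.024). Its r with STZ was 0.03, 0.61 after the group means were taken off and 0.40 as deposited.

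**Figure D4:**
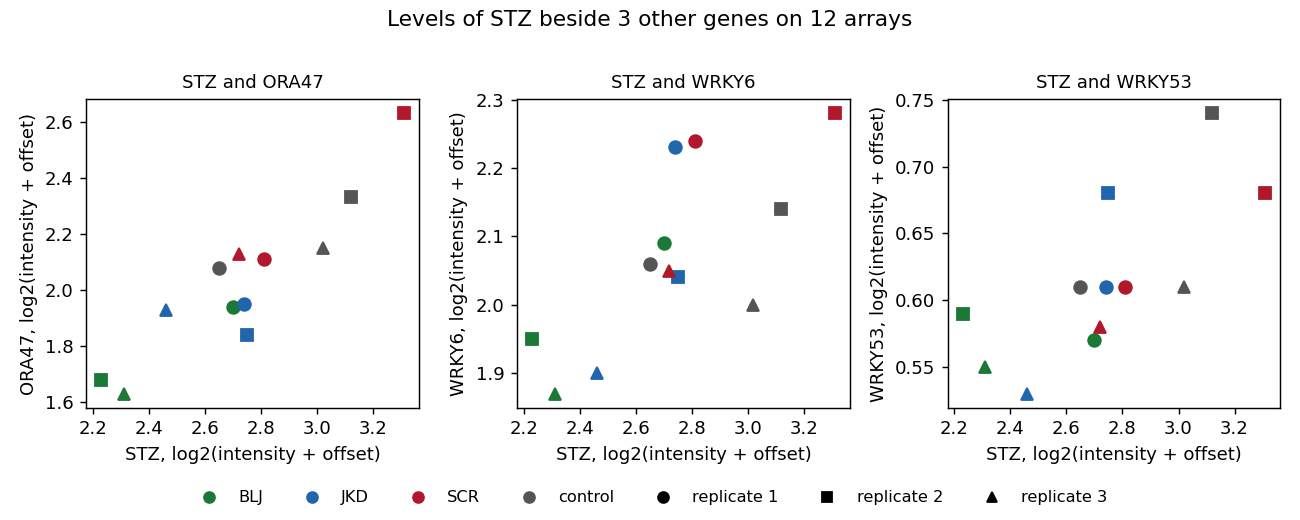
Log2 level of ORA47, WRKY6 and WRKY53 (vertical axes) against that of STZ (horizontal axes) on 12 arrays, coloured by group and shaped by replicate number. SCR 2 and control 2 lie at the upper right and BLJ 2 and BLJ 3 at the lower left of the ORA47 plot, where r was 0.92.

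ZAP1 (AT2G04880), a WRKY gene that the table lists under another symbol, had log2 fold changes of 0.01, −0.05 and −0.11 in the BLJ, JKD and SCR lines. Every SCR array lay under every control array, as did 9.53% of all probe sets, and the adjusted p was 0.157 in limma. As deposited it had 0.12, 0.05 and −0.04. TINY, an AP2/ERF factor, had 0.00, 0.09 and −0.02, and PUCHI and TINY2 were too dim to be tested.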

How the data were processed

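The authors deposited a table of linear intensity values for 22801 probe sets on 12 arrays. MAS5 is named per the submitters' processing notes; how it corrected background and scaled the arrays is not stated, and the values carry no detection calls. Per the labels' protocols, arrays were labelled with 1 or 2 amplification cycles, without a statement of which array had which. Groups and replicates came from the array titles, and 0 columns were left unused.

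From these intensities, arrays were quantile-normalized, 0.702 (the 20th percentile) was added and log2 taken. The 55 control probe sets and the dimmest 30% by mean were left out, which left 15922. Limma 3.58.1 in R 4.3.3 fitted the 4 group means over all arrays with trend and robust options. The offset shrinks the fold changes of dim genes, and precision is limited by the 3 arrays per group. The labels call the replicates biological. The fit was tested on simulated data. Of probe sets, 13513 have 1 gene, and 13436 of them matched a RefSeq table of assembly TAIR10.1, used for names.

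Members and lists were chosen with earlier results of these data known; the 4 lists put together from the table's gene names were added later. The naming rule covers all 7 members and pathway list genes called against the control, of which there were 0; the other list genes and markers were named after their values were seen. The motif searches of the plan were not run for want of sequences. Replicate numbers were not taken to pair the arrays, because not every correlation of deviations between same-numbered arrays was over 0.1.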

Additional observations from a re-analysis of the deposited data

How the results depend on the processing

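The count of 0 genes called held in all 7 tests under every alternative run except 1: without normalization between arrays, limma called 1 gene in the BLJ line, WRKY53 (−0.12, adjusted p = 0.0398). The alternatives were median scaling, 2 other offsets, 2 other filters, and moderation without trend or robust options. Further runs took only the 2 groups compared (not possible for the F-test) or left out each array in turn. A last run left out control 3, BLJ 1 and BLJ 3 together. Under the offset that set intensities under 1 to 1, only STZ and WRKY6 could be called. With the replicate number as a block the count was 0 as well. In the BLJ line STZ then had −0.52 (adjusted p = 0.0993 in limma). WRKY53 had −0.09 there (adjusted p = 0.0793 in limma, against 0.275 without the block). Over all probe sets the block moved the calls to 206 for SCR minus control, against 63 without it. For BLJ minus SCR the calls moved to 643, against 247. Deviations of same-numbered arrays correlated at −0.19 to 0.28 for number 1, 0.21 to 0.62 for number 2 and 0.06 to 0.52 for number 3, with 12 of 18 pairs over 0.1, and 7 of 12 arrays correlated best with an array of their own number. The labels do not say that a number marks a shared batch. Choosing probe sets by deposited brightness could only give the same probe sets, as each gene had 1. Of 828 values of single genes under alternatives, 794 moved by less than the SD within groups or not at all. A further 33 moved by more and 1 became called, and 32 took the other sign without a call. Another filter or moderation, the block, only the 2 groups compared, or the choice by brightness cannot change a log2 fold change here. Values under those settings were fixed in advance and are among the 794, which therefore overstates how stable the values were.

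STZ in the BLJ line lay between −0.66 and −0.42 with each array left out and at −0.66 without control 3, BLJ 1 and BLJ 3, the arrays with high heat shock levels, which leaves BLJ 2 as the one BLJ array. Median scaling gave STZ 0.09 in the BLJ line, 0.36 for JKD and 0.39 for SCR. It gave WRKY6 0.41, 0.51 and 0.42 (adjusted p = 0.113, 0.0518 and 0.26 in limma), the JKD value just short of a call. The cause of the difference between scalings was not tested. With intensities under 1 set to 1, every value of WRKY20, WRKY22, WRKY47 and WRKY53 became 1. Their log2 fold changes of 0.00 in every line were fixed by that setting, which says nothing about these genes. Those fixed values of 0.00 are among the 828 counted above as well. With no filter WRKY42 was tested and not called: −0.04 in the JKD line (adjusted p = 0.217). Without detection calls, how much of the dim genes' signal is background is unknown.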

Other observations

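Some genes of neighbouring pathways differed in other ways from STZ, without a call in limma against the control after normalization. EIN3, the main transcription factor of ethylene signalling, had log2 fold changes of 0.23 for BLJ, 0.19 for JKD and 0.13 for SCR (adjusted p = 0.334, 0.406 and 0.634). As deposited it had 0.51, 0.47 and 0.30, called for BLJ and JKD (adjusted p = 0.0342 and 0.0376). CML42, a calmodulin-like calcium sensor, had 0.23 for BLJ (95% interval 0.08 to 0.39, adjusted p = 0.0864), 0.05 for JKD and −0.08 for SCR. It was called higher for BLJ than for SCR (0.32, adjusted p = 0.044), also as deposited (0.42, adjusted p = 0.012), where the difference from the control was called too (0.44, adjusted p = 0.00333). Its r with STZ was −0.30 over 12 arrays, 0.77 once group means were taken off and 0.15 as deposited. The ubiquitin ligase gene PUB23 had 0.17, 0.22 and 0.15 in the 3 lines. As deposited PUB23 had 0.54, 0.59 and 0.38, called in limma for BLJ and JKD (adjusted p = 0.039 and 0.0226). PUB22 had 0.01, −0.06 and 0.07 (0.41, 0.33 and 0.30 as deposited), and PUB24 −0.01, −0.02 and 0.01. The brightest 10% of all probe sets had deposited medians of 0.44, 0.45 and 0.26 in the BLJ, JKD and SCR lines. The part of that general shift in the deposited values and calls of these and the other list genes was not tested.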
